A study of Drosophila melanogaster with 4 samples.

Results

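In the study's short list of the genes with the largest falls at 30 min after laser wounding of Drosophila embryos, which is an extract of all the genes it calls down-regulated, 9 genes encode proteins of the endoplasmic reticulum (ER), peroxisomes, mitochondria and nascent chains, an aldehyde dehydrogenase, or proteins of unknown role. They are P32, CG1598, CG3652, CG4960, ReepB, CG14545, Pex11, Nacalpha and CG31075, and they are described here on other arrays, taken at 0 min after wounding. They were taken by name from that short list, and their clones were found through the platform annotation or, for P32 and Pex11, through the clone names of the study's gene table. All 9 of 9 were measured on every array, among 8419 genes in all. The 30 min arrays were not analysed here.

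Embryos of 0 to 1 h carrying the actin reporter sGMCA were dechorionated by hand, placed in halocarbon oil and either wounded with a laser or handled alike without a wound, then frozen at once. By the methods, each wounded embryo received 8 wounds. Total RNA of wounded and unwounded embryos, 30 ug of each, was labelled with Cy3 or Cy5 and hybridised together on spotted cDNA arrays, so that each array gives 1 log2 ratio per clone. There were 4 arrays, experiments 3, 4, 7 and 8, with the wounded sample in Cy3 in experiments 3, 7 and 8 and in Cy5 in experiment 4, the dye swap. Each sample was RNA of many embryos, so differences between single embryos cannot be seen. Although the methods describe independent replication, neither they nor the labels name separate cultures or collections. The p-values therefore measure only the spread between these arrays, which may be technical.

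None of the sources used here says which sample is on top of the ratio. The study's scheme of the arrays draws the wounded sample in Cy5, which the labels give for experiment 4 alone. The sign of a ratio is therefore that of the deposited value and gives no direction of wounding. Means over arrays are given with the sign of experiment 4 turned, as for Cy5 over Cy3, and with experiment 4 not turned. The gene medians of the 4 arrays lay between -0.03 and 0.01, and the standard deviation over genes was 0.36, 0.26, 0.30 and 0.25 in experiments 3, 4, 7 and 8. Between experiments 7 and 8, which have the same dyes, the deposited ratios had a Pearson correlation of -0.27 over 11810 probes and -0.35 over 8348 genes. These points share their arrays and are not replicates. Which way experiment 8 runs relative to experiment 7 could not be settled from the files, so a swap of the samples on either array cannot be told apart from opposite measurements, and values with the sign of experiment 8 turned, added after the data were seen, stand beside those that depend on it.

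In the syncytial embryo, nuclei divide in a common cytoplasm that runs largely on mRNA loaded by the mother. Many membrane proteins begin at the ribosome, where nascent chains meet chaperones such as the nascent polypeptide-associated complex, and are then inserted into the ER either during translation or, for proteins with a membrane anchor at their tail, afterwards by a dedicated ATPase. Hairpin proteins of the REEP family bend the ER membrane into tubules. Peroxisomes divide with the help of Pex11 proteins, and mitochondria import their matrix proteins from the cytosol.

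The 9 genes shared a profile in which experiment 7 was high and experiment 8 was low. In experiment 7 they ran from 0.59 for ReepB to 1.15 for CG31075, with a median of 0.78, and all 9 passed the study's fold limit of 1.5, which is 0.585 on the log2 scale, on the positive side. This limit was passed on that side by 1.81% of 8380 genes. In experiment 8 they ran from -1.10 for CG31075 to -0.19 for CG4960, with a median of -0.64. All 9 were below 0 and 5 of them passed the limit on the negative side, against 1.79% of 8358 genes. In experiment 3 all 9 were above 0, from 0.28 to 0.55 with a median of 0.37, and none passed the limit, as 2.06% of genes did. In experiment 4 they lay around 0, with 4 above and 5 below, a median of -0.02 and a range of -0.11 to 0.31.

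**Figure D1:**
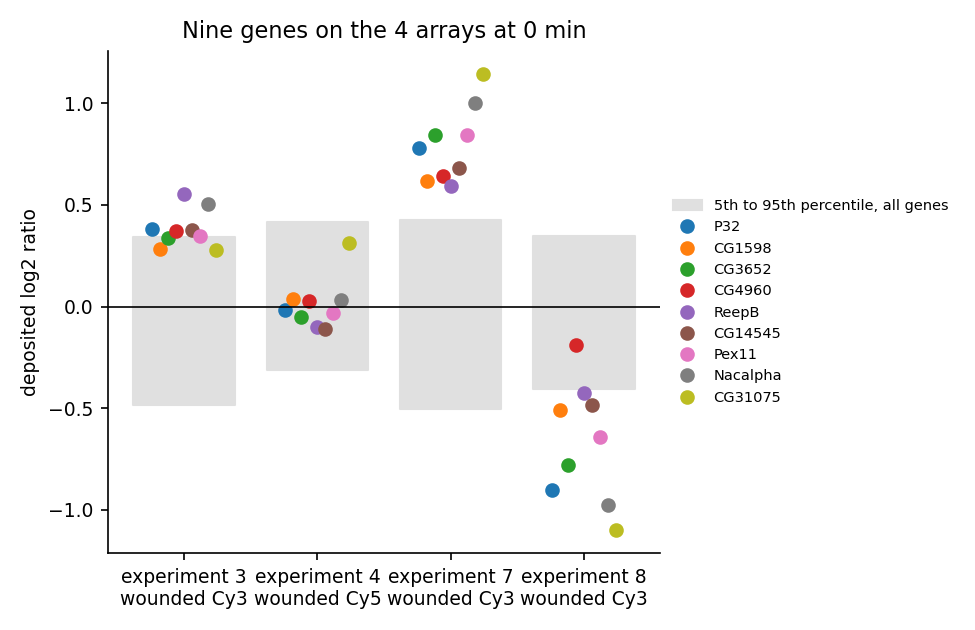
Deposited log2 ratio (vertical axis) of each of the 9 genes on each array (horizontal axis, with the dye of the wounded sample), 1 coloured point per gene. The grey boxes span the 5th to the 95th percentile of all genes on the array, which are -0.50 and 0.43 in experiment 7 and -0.40 and 0.35 in experiment 8: all 9 points lie above the box in experiment 7, and 8 of 9 lie below it in experiment 8.

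The combination of signs was common among all genes, whereas the sizes were less so. A ratio above 0 in experiments 3 and 7 and below 0 in experiment 8 was found for 9 of 9 genes, beside 21.2% of 8348 genes with a value on all 4 arrays, and the signs of experiments 7 and 8 alone were shared by 33.9%. The fold limit was passed up in experiment 7 and down in experiment 8 by 5 of 9, namely P32, CG3652, Pex11, Nacalpha and CG31075, beside 36 genes, or 0.431%, of the 8348. Of the 149 genes past the limit up in experiment 7, 114 (76.5%) were below 0 in experiment 8, so genes as high in experiment 7 as these 9 usually had the opposite sign in experiment 8. None of the 9 kept 1 sign over experiments 3, 7 and 8, which share their dyes, as 21.8% of genes did. With the sign of experiment 8 turned, 9 of 9 did, as 39.7% of genes did.

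Across the 9 genes, a higher ratio in experiment 7 went with a lower one in experiment 8 (Pearson r = -0.88 and Spearman's rho = -0.85 over 9 genes, given as a description of genes that share both arrays). CG31075 and Nacalpha stood at one end, and CG4960 and ReepB at the other. The difference between both arrays, experiment 7 minus experiment 8, was 2.25 for CG31075, which only 7 of the 8348 genes exceeded, and 0.83 for CG4960, which 252 exceeded.

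**Figure D2:**
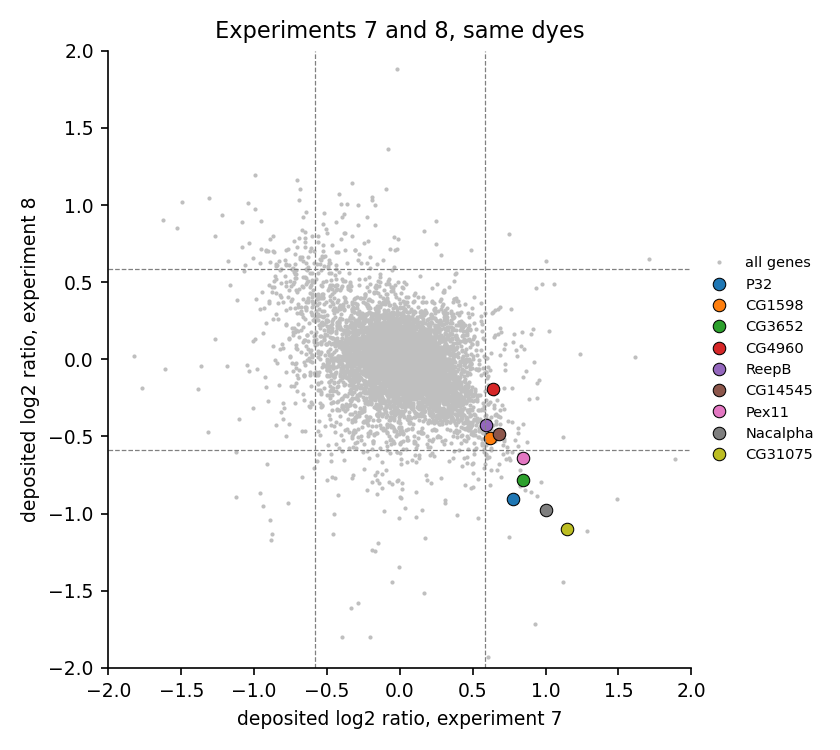
Deposited log2 ratio in experiment 7 (horizontal axis) and in experiment 8 (vertical axis) of all genes with a value on all 4 arrays (grey; 5 lie outside the axes) and of the 9 genes (coloured). Dashed lines mark the 1.5-fold limit of 0.585 in each direction: all 9 genes lie right of the upper limit in experiment 7, and 5 of them lie below the lower limit in experiment 8.

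Nacalpha encodes the alpha subunit of the nascent polypeptide-associated complex, which binds new chains as they leave the ribosome. Its deposited log2 ratios were 0.51, 0.03, 1.00 and -0.98 in experiments 3, 4, 7 and 8, the values of the single clone GH11940. Among all genes these stood at percentiles 97.5, 57.2, 99.8 and 0.4 of their arrays, near the top in experiment 7 and near the bottom in experiment 8, where the size was 1.97-fold. The gene bic encodes the beta subunit of the same complex, and its ratios were -0.02, -0.11, -0.07 and 0.03 in experiments 3, 4, 7 and 8, with no such difference between experiments 7 and 8.

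CG1598 is the fly counterpart of the Get3 (TRC40) ATPase that delivers tail-anchored proteins to the ER. It is the 1 gene of the 9 with a pair of clones of its own. Clone RE07422 had log2 ratios of 0.35, 0.11, 0.59 and -0.50 in experiments 3, 4, 7 and 8. Clone RH73327 had 0.21, -0.04, 0.64 and -0.52. The clones differed by 0.05 in experiment 7 and 0.02 in experiment 8, where genes of 2 clones differed by medians of 0.13 and 0.13, so the opposite values of these arrays were read by both clones. Averaged, the gene had ratios of 0.28, 0.04, 0.62 and -0.51, at percentile 98.6 of all genes in experiment 7 and percentile 2.7 in experiment 8.

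The list of ER targeting and translocation genes gave no such profile as a whole. Without Nacalpha and CG1598, its 14 measured genes had median ratios of 0.15, -0.02, 0.10 and -0.04 in experiments 3, 4, 7 and 8, beside -0.03, 0.00, 0.01 and -0.02 over all genes tested. A positive ratio in experiment 7 with a negative one in experiment 8 was found for 7 of 14, beside 33.9% of all genes. Sec61beta, a subunit of the translocation channel, had the highest mean of the list with experiment 4 turned or not, with ratios of 0.33, 0.01, 0.68 and -0.37. Srp9, a subunit of the signal recognition particle, had the lowest with experiment 4 turned, a mean of -0.02, with ratios of -0.11, 0.08, 0.11 and -0.01. Its mean was 0.02 with experiment 4 not turned, where that of Sgt was the lowest at -0.08. Srp72, another subunit of that particle named after its values were seen, had 0.28, -0.01, 0.57 and -0.52.

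ReepB and CG4960 encode proteins of the REEP family, which shape ER tubules. ReepB, read by clone GM14577, had log2 ratios of 0.55, -0.10, 0.59 and -0.42 in experiments 3, 4, 7 and 8. It was the highest of the 9 genes in experiment 3, at percentile 97.8 of all genes, and the lowest of them in experiment 7. CG4960, read by clone AT31258, had ratios of 0.37, 0.03, 0.64 and -0.19. It was the nearest to 0 of the 9 genes in experiment 8, at percentile 18.7 of all genes. The study's gene table gives clone GM14577 to both genes, while the platform annotation gives it to ReepB alone, so at that clone the 2 genes cannot be told apart. That table does not give AT31258 to CG4960, and the study's short list prints the same log2 change for both genes. The values of CG4960 here thus come from a clone other than the one the study names for it. The clones differed by 0.18, 0.13, 0.05 and 0.23 on the 4 arrays.

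Other ER-shaping genes did not share these values. The 5 others that were measured, ReepA, CG5539, Rtnl1, atl and Arl6IP1, had medians of -0.02, 0.02, -0.09 and 0.11 in experiments 3, 4, 7 and 8, and 0 of 5 combined a positive ratio in experiment 7 with a negative one in experiment 8. Arl6IP1, a hairpin protein of ER tubules, had the highest mean among them with experiment 4 turned, 0.07, with ratios of -0.02, -0.16, -0.05 and 0.19. The gene atl, which encodes the GTPase atlastin that fuses ER tubules, had the lowest, -0.07, with ratios of 0.02, 0.07, -0.16 and -0.06. This order changed with experiment 4 not turned, where CG5539 was the highest at 0.05 and ReepA the lowest at -0.033. ReepA, the family member closest by name, had ratios of -0.08, 0.02, -0.18 and 0.11 over 2 clones, opposite in sign to those of ReepB on all 4 arrays. Reepl1, Rtnl2 and Lnp were not measured here.

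**Figure D3:**
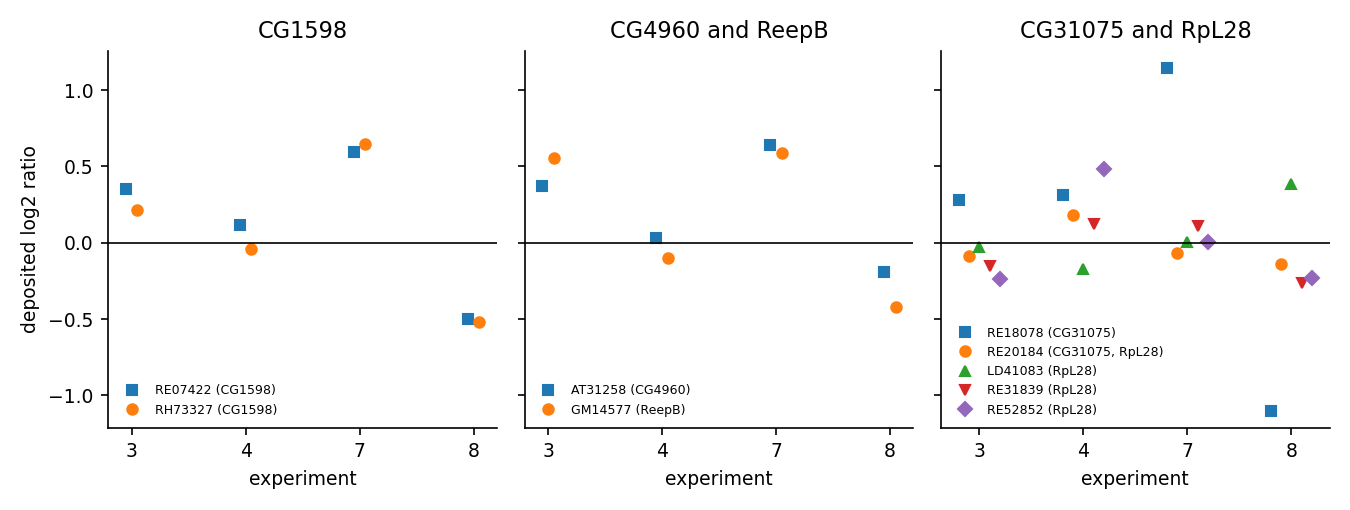
Deposited log2 ratio (vertical axis) of single clones on experiments 3, 4, 7 and 8 (horizontal axis) for CG1598 (left), for CG4960 and ReepB (middle) and for CG31075 and RpL28 (right), 1 symbol per clone. The clones of CG1598 differ by at most 0.15, whereas RE18078 of CG31075 and RE20184, which the annotation gives to CG31075 and RpL28, differ by 1.22 in experiment 7.

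CG31075 encodes an aldehyde dehydrogenase, an enzyme that oxidises aldehydes to acids. Clone RE18078 had log2 ratios of 0.28, 0.31, 1.15 and -1.10 in experiments 3, 4, 7 and 8, the highest of the 9 genes in experiments 4 and 7 and the lowest in experiments 3 and 8. The size was 2.21-fold in experiment 7 and 2.15-fold in experiment 8, at percentiles 99.9 and 0.3 of all genes. A second clone, RE20184, is annotated to both CG31075 and the ribosomal protein gene RpL28 and was left out of the gene's value. It had -0.09, 0.18, -0.07 and -0.14, all smaller in size than those of RE18078. The other clones of RpL28 alone, LD41083, RE31839 and RE52852, had 0.00, 0.11 and 0.01 in experiment 7 and 0.38, -0.27 and -0.23 in experiment 8. The large values of CG31075 thus rest on the 1 clone RE18078.

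Among the 7 other aldehyde dehydrogenases, the medians were 0.10, 0.20, 0.11 and -0.25 in experiments 3, 4, 7 and 8. Of these, 4 of 7 were above 0 in experiment 7 and below 0 in experiment 8, beside 33.9% of all genes. Ssadh, which encodes succinic semialdehyde dehydrogenase, had the highest mean of them with experiment 4 turned, with ratios of 0.48, 0.13, 0.62 and -0.49. Aldh, named after its values were seen, had 0.32, 0.23, 0.63 and -0.44. With experiment 4 not turned, Ssadh and Aldh shared the highest mean, 0.185. P5CDh2, an enzyme of proline breakdown, had the lowest mean of the list with experiment 4 turned, and CG8665 had it with experiment 4 not turned, at -0.33. The ratios of P5CDh2 were -0.28, 0.38, -0.33 and -0.25, of 1 sign once experiment 4 is turned (mean -0.31, limma adjusted p = 0.816, and mean -0.12 with adjusted p = 0.997 with experiment 4 not turned).

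Pex11, which is CG8315 and is called Pex11ab by RefSeq, encodes a membrane protein that elongates peroxisomes before they divide. Its log2 ratios were 0.35, -0.03, 0.85 and -0.64 in experiments 3, 4, 7 and 8, from clone RE39562, with 1.80-fold in experiment 7 and 1.56-fold in experiment 8. It was the gene whose profile lay nearest to the median profile of the 9, at a Euclidean distance of 0.073 over the 4 arrays. By their medians, the other peroxisomal genes lay near 0. Their medians over 10 measured genes were -0.04, -0.06, 0.02 and -0.01, and none passed the fold limit in both experiments 7 and 8. Of these 10, 4 were above 0 in experiment 7 and below 0 in experiment 8, beside 33.9% of all genes. Pex13, a docking protein for peroxisomal import, had the highest mean of these with experiment 4 turned, 0.09, with ratios of 0.12, -0.05, 0.27 and -0.06. Mfe2, an enzyme of peroxisomal fatty acid oxidation, had the lowest, -0.03, with ratios of -0.18, 0.02, 0.03 and 0.06. Pex5 was the highest at 0.11 and Pex2 the lowest at -0.08 with experiment 4 not turned.

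P32 encodes an acidic protein of the mitochondrial matrix, the fly counterpart of human C1QBP. Its log2 ratios were 0.38, -0.02, 0.78 and -0.90 in experiments 3, 4, 7 and 8, from clone LD29590. It stood at percentile 99.4 of all genes in experiment 7 and percentile 0.5 in experiment 8. Of the 13 other genes of the mitochondrial matrix and import machinery, 9 were above 0 in experiment 7 and below 0 in experiment 8, beside 33.9% of all genes. Their medians were 0.08, -0.05, 0.17 and -0.11 in experiments 3, 4, 7 and 8. Tim23, a channel subunit of the inner membrane, had the highest mean with experiment 4 turned, 0.17, with ratios of 0.18, -0.28, 0.38 and -0.16, and Hsp60A, a matrix chaperonin, had the highest with experiment 4 not turned, 0.28. ClpP, a matrix protease, had the lowest in both cases, with -0.13, -0.03, -0.12 and -0.003. No gene of this list other than P32 passed the fold limit in both experiments 7 and 8, as 5 of the 9 genes did. Among the others, ttm50, named after its values were seen, had 0.25, 0.13, 0.61 and -0.51.

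CG3652 encodes a membrane protein with a Yip1 domain, a fold of proteins found at the Golgi and on transport vesicles. Its log2 ratios were 0.34, -0.05, 0.84 and -0.78 in experiments 3, 4, 7 and 8, from clone GH04132, with 1.79-fold in experiment 7 and 1.72-fold in experiment 8. The closest pair among the 9 genes was CG3652 and Pex11, 0.143 apart over the 4 arrays, followed by P32 and CG3652, 0.148 apart. Genes of other Yip1 proteins and of vesicle coats were measured for 14 of the list and had medians of 0.04, -0.04, 0.15 and -0.03. Of these 14, 7 were above 0 in experiment 7 and below 0 in experiment 8, beside 33.9% of all genes. Yip1d1, another gene of the Yip1 family, had 0.02, -0.03, 0.19 and -0.04. With experiment 4 turned, the highest mean was that of gammaCOP, a coat subunit of vesicles returning to the ER, with 0.24, -0.20, 0.17 and -0.08, and the lowest that of Sec16, a scaffold of ER exit sites, with -0.12, 0.37, -0.10 and 0.05. With experiment 4 not turned, Sec24AB was the highest at 0.11 and Sec13 the lowest at -0.09.

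CG14545 has no role that is known with certainty. Its log2 ratios were 0.38, -0.11, 0.68 and -0.49 in experiments 3, 4, 7 and 8, from clone RE55691. It was the lowest of the 9 genes in experiment 4 and stood at percentile 99.0 of all genes in experiment 7 and percentile 3.1 in experiment 8.

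Averaged over the 4 arrays, none of the 9 genes passed the threshold of limma, an adjusted p under 0.05 (Benjamini-Hochberg over 8367 genes, two-sided) and at least 1.5-fold. No gene passed at all (0.0% of 8367), with 404 genes (4.83%) at an unadjusted p under 0.05, none of them among the 9. The study also reported no significant changes of expression at its time point immediately after wounding. With experiment 4 not turned, 0 genes passed and 203 (2.43%) had an unadjusted p under 0.05, again none of the 9. The 9 means ran from 0.00 for CG31075 to 0.21 for ReepB, with a median of 0.12 beside 0.00 over all genes. With experiment 4 not turned they ran from 0.06 for P32 to 0.21 for CG4960, with a median of 0.13.

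With experiment 8 as deposited, the spread between arrays was larger than each mean. ReepB had a mean of 0.21 (SD 0.47, n = 4 arrays, limma adjusted p = 0.998) and the mean of CG4960 was 0.20 (limma adjusted p = 0.998, SD 0.38 over the 4 arrays). CG4960 had the smallest spread and the smallest unadjusted p of the 9, 0.226 in limma across all genes, or 0.195 with experiment 4 not turned. For CG14545, Pex11 and Nacalpha the means were 0.17, 0.15 and 0.12, with SDs of 0.50, 0.62 and 0.85. For CG3652, CG1598 and P32 they were 0.11, 0.09 and 0.07, with SDs of 0.68, 0.48 and 0.72. CG31075 had the largest spread, with a mean of 0.00 and an SD of 0.95 over the 4 arrays. Its mean was 0.16 with experiment 4 not turned. Without experiment 7, the means of 7 of the 9 genes turned negative, those of CG4960 and ReepB excepted, and without experiment 3 those of P32, Nacalpha and CG31075 did (-0.036, -0.003 and -0.089). The median of the 9 means was 0.39 without experiment 8. With the sign of experiment 8 turned it was 0.47, or 0.45 with experiment 4 not turned, and 0 of 9 genes passed in either case. The 9 means then ran from 0.29 for CG4960 to 0.61 for Nacalpha, the latter past the 1.5-fold limit. With experiment 4 not turned they ran from 0.31 for CG4960 to 0.71 for CG31075.

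The arrays bounded the mean of few of these genes. Limma's 95% confidence interval stayed inside 1.5-fold on either side for CG1598 (-0.36 to 0.53) and CG4960 (-0.16 to 0.56), that is for 2 of 9, beside 7694 (92.0%) of the 8367 genes. It was widest for CG31075, from -0.83 to 0.84. For P32 it ran from -0.57 to 0.71 and for Nacalpha from -0.62 to 0.87. With experiment 4 not turned, the same 2 of 9 and 91.6% of all genes were within these limits.

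**Figure D4:**
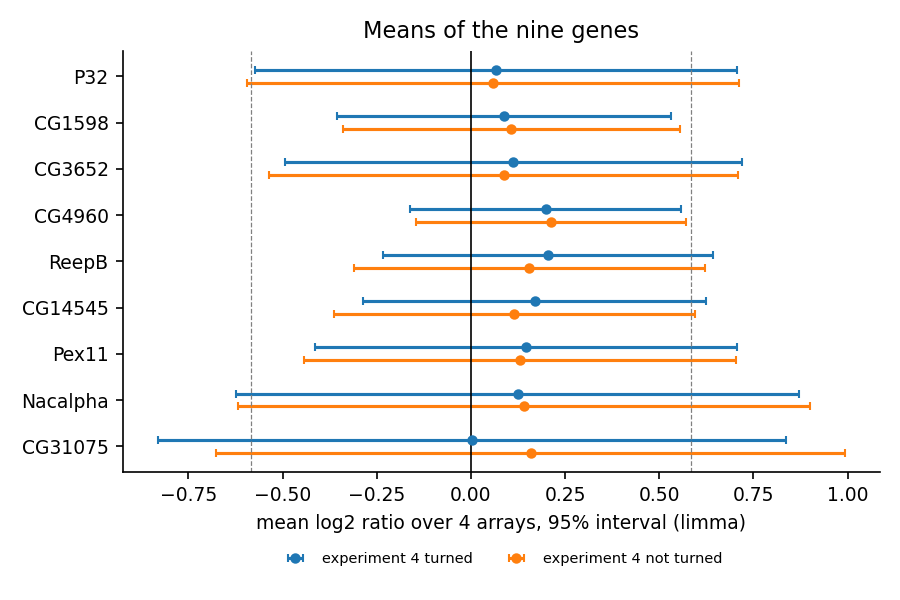
Mean log2 ratio over 4 arrays (horizontal axis) of each of the 9 genes with its 95% confidence interval from limma, with experiment 4 turned (blue) and not turned (orange). Dashed lines mark 1.5-fold in each direction: every interval holds 0, and those of CG1598 and CG4960 alone stay within both lines.

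Some genes other than these 9 had closer profiles than most of the 9. The 5 other genes nearest to the median profile of the 9 over the 4 arrays were CG8993 and CG5382, both at a distance of 0.087, CG15093 at 0.114, CG1827 at 0.115 and UQCR-C2, a core subunit of mitochondrial complex III, at 0.129. Ratios of UQCR-C2 were 0.33, 0.08, 0.71 and -0.62. Of the 9, Pex11 (0.073) was nearer than these and CG3652 (0.162) was next, while CG31075 (0.681) was the farthest, at rank 472 of all genes.

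In experiments 7 and 8, the other genes of the study's short list that were measured had the same signs as the 9 genes, and those of its short list of up-regulated genes had the opposite ones. Of RpL23, Cyp6a9, exu, GstD1, dhd and Cyp6a19, 6 of 6 were above 0 in experiment 7 and below 0 in experiment 8, beside 33.9% of all genes. Their medians were 0.48, 0.31, 0.76 and -0.65 in experiments 3, 4, 7 and 8. In experiment 4 they ran from 0.01 for Cyp6a9 to 0.53 for dhd, a germline thioredoxin. The 9 genes ran from -0.11 to 0.31 there, with a median of -0.02, so both ranges overlapped. The 15 measured genes of the short up-regulated list had medians of -0.13, -0.02, -0.89 and 0.63. Of them, 15 of 15 were below 0 in experiment 7 and above 0 in experiment 8, beside 27.1% of all genes. In experiment 3, 3 of the 15 were above 0, and in experiment 4, 6 of them were. The study chose both short lists on its 30 min arrays and not on these.

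By their medians, early zygotic markers differed more between the same arrays than maternal markers did. Of 16 measured early zygotic markers, 12 were below 0 in experiment 7 and above 0 in experiment 8, as were 27.1% of all genes. The medians of this list were -0.21, -0.01, -0.45 and 0.37 in experiments 3, 4, 7 and 8, opposite in sign to those of the 9 genes except in experiment 4. One of these markers, nullo, is also in the short up-regulated list. The 14 measured maternal markers had medians of 0.11, -0.14, -0.09 and 0.06. Of these 14, 7 were below 0 in experiment 7 and above 0 in experiment 8, and 4 had the reverse signs. None of either list passed limma over all genes. The part of embryonic stage in the values of the 9 genes was not tested.

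**Figure D5:**
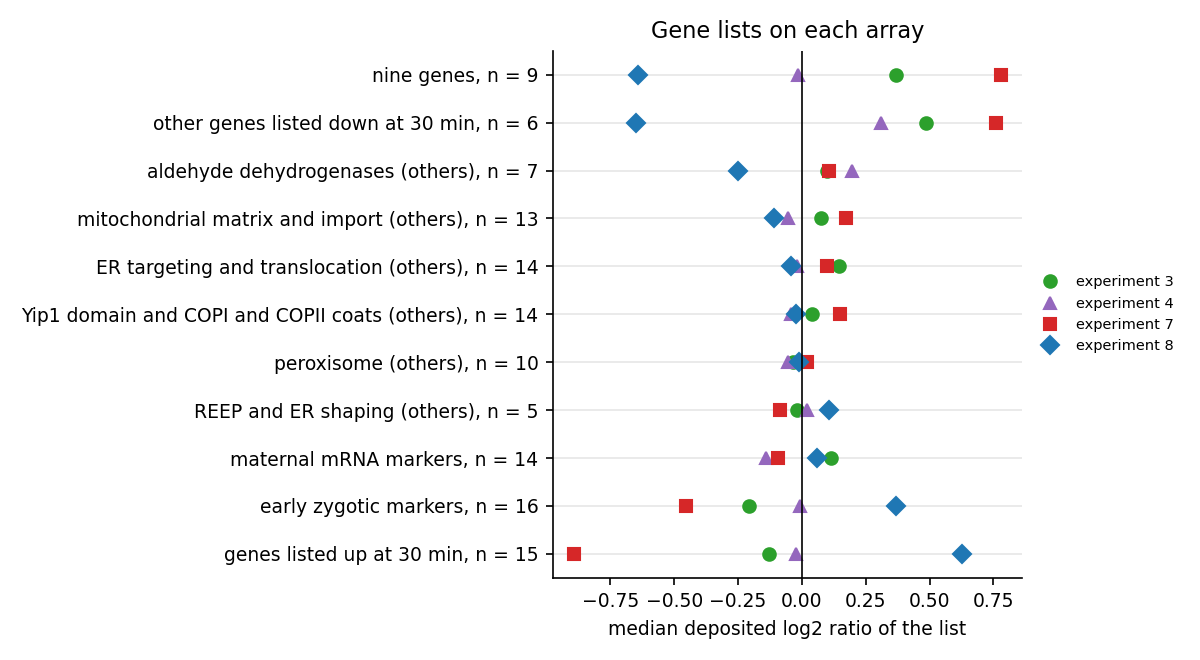
Median deposited log2 ratio (horizontal axis) of each gene list (vertical axis, with the number of genes measured) on experiments 3, 4, 7 and 8 (symbols); pathway lists marked as others leave out the 9 genes. The 9 genes and the other genes listed as down-regulated have medians of 0.78 and 0.76 in experiment 7, the pathway lists without the 9 genes lie between -0.09 and 0.17 there, and the genes listed as up-regulated have a median of -0.89.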

How the data were processed

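The authors scanned the arrays, filtered dim or questionable spots by their methods, and deposited log2 ratios of 4 arrays, loess normalized within each array in limma (version not given in the sources used here). Whether that filter was applied to the deposited log2 values is not known, and no intensities come with them, so the depth of a spot is unknown and the number of arrays limits the precision. Of 12144 spots, 160 control spots were left out. Genes came from the platform annotation, updated through RefSeq's Release 6 table (8408 symbols matched, 11 kept as given), and 158 clones without a gene were named by the clone and symbol columns of the study's gene table. Of 11984 probes, 10092 had 1 gene, 618 several and 1274 none. Only clones with 1 gene entered the gene means, 8419 genes in all.

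Spots of a gene were averaged per array. Genes read on 3 or more arrays, 8367 in all, entered limma 3.58.1 under R 4.3.3 (lmFit, eBayes, two-sided, Benjamini-Hochberg). The fit was tested on simulated data of 8367 genes with the direction known. It called 98 of 100 genes changed by 1 and 100 of 100 changed by 2 on the log2 scale, and 3 unchanged genes. The simulated noise was independent between arrays, whereas experiments 7 and 8 correlated at -0.35 over genes. The changed genes were drawn at random from all genes. These counts therefore give no rate for the 9 genes, whose standard errors reached 0.34 for CG31075. The threshold was an adjusted p under 0.05 and 1.5-fold. Alternatives were experiment 4 not turned, a dye term, arrays scaled to one spread, genes on 4 arrays only, second printings left out, each spot tested alone and each array left out. Further settings were added after the data were seen: clones of several genes included, experiment 8 turned, and the settings without an array or by spot repeated with experiment 4 not turned. Named genes are the 9, genes that share their clones, the 5 nearest profiles, the highest and lowest mean of each pathway list without the 9, with experiment 4 turned, and the other genes of the study's short down-regulated list. Other genes (bic, ReepA, Yip1d1, Srp72, Aldh, CG8665, ttm50, nullo, and those highest or lowest with experiment 4 not turned) were chosen after their values were seen. The members and lists were chosen with earlier results of these data known. Promoter motifs were not searched.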

Additional observations from a re-analysis of the deposited data

Results flagged for a closer look

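The 9 genes and medians of gene lists, 20 items, were searched for 1 array far from the other 3 (Dixon's test). Each was taken as deposited and with experiment 4 turned (40 in all). The search found 1 of 40, no more than the rate of about 1 in 20 that chance gives. The 40 overlap, since each item enters with both signs of experiment 4 and CG31075 is also in a list. The median deposited log2 ratio of the 8 aldehyde dehydrogenases, CG31075 among them, was -0.344 in experiment 8, against 0.13, 0.21 and 0.21 in experiments 3, 4 and 7. With experiment 4 turned the same median did not stand out (gap over range 0.236, against 0.846 as deposited, which passes the 95% limit for 4 values). In experiment 8, 7 of the 8 genes were below 0, with CG31075 (-1.10) and CG8665 (-1.03) the lowest.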

How the results depend on the processing

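In every setting run, 0 of the 9 genes and 0 of all genes passed the threshold of limma, including by spot (0 of 11848, with 696 at an unadjusted p under 0.05), and the smallest adjusted p was 0.0623 by gene, with a dye term, and 0.0553 by spot. Of the 9 means, that of CG31075 alone changed sign in a setting that kept all 4 arrays, to -0.102 with a dye term, -0.0436 with arrays scaled and -0.0591 with clones of several genes included. Single arrays moved the means further. Without experiment 7, 7 of 9 means turned negative, those of CG4960 and ReepB excepted, and the median of the 9 was -0.0885, against 0.391 without experiment 8. Without experiment 3, those of P32 (-0.0364), Nacalpha (-0.00304) and CG31075 (-0.0888) did. Over the arrays left out, the means ran from -0.169 to 0.391 for P32, -0.0885 to 0.288 for CG1598, -0.131 to 0.41 for CG3652, 0.0508 to 0.328 for CG4960, 0.0767 to 0.415 for ReepB, -0.000626 to 0.388 for CG14545, -0.0875 to 0.408 for Pex11, -0.168 to 0.49 for Nacalpha and -0.378 to 0.371 for CG31075. With experiment 4 not turned, they ran from -0.18 to 0.38, -0.0632 to 0.314, -0.165 to 0.376, 0.0693 to 0.346, 0.00963 to 0.347, -0.0727 to 0.316, -0.108 to 0.387, -0.146 to 0.513 and -0.171 to 0.578 for the same genes in the same order, and the mean of P32 was -0.0471 without experiment 3. With experiment 8 turned as well, a choice made from its correlation with experiment 7 after the data were seen, the median of the 9 means was 0.466 (0.45 with experiment 4 not turned), 809 genes (938) had an unadjusted p under 0.05 in limma, and 0 passed. No paired analysis was possible because each ratio already pairs a wounded with an unwounded sample on 1 array, and there is no other group to pair these ratios with. The spread of 4 arrays and the unsettled direction limit what could be seen, and dim clones could not be told from bright ones.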
